A study of Mus musculus with 2 samples.

Results

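The collagen crosslinking enzymes described here are 10 genes of 3 families, the lysyl oxidases Lox, Loxl1, Loxl2, Loxl3 and Loxl4, the lysyl hydroxylases Plod1, Plod2 and Plod3, and the prolyl 4-hydroxylase subunits P4ha2 and P4ha3. They were found by symbol in the gene list of the files. All 10 were among the 27998 listed genes, and all 10 were counted in both libraries. The cells were lung fibroblasts from wild-type C57BL/6 mice, an inbred strain, grown from whole dissociated lungs in medium with 10% fetal bovine serum. A control library (cells kept with vehicle) and a stimulated library were each made once, so the group and the library cannot be told apart. At passage 3 the stimulated cells were treated for 14 days. The protocol names 10 µM rosiglitazone (an agonist of the receptor PPARG), 1 µM SB4315442, and the growth factor rhBMP4 at 4 µM (bone morphogenetic protein 4, recombinant, human), alone or combined. Which of these agents this library received is not in the labels. The protocol also names an ITS+3 supplement at 1% by volume for a lipofibroblast-like state, again without saying whether these cells had it. Lipofibroblasts are lipid-storing fibroblasts of the alveolar wall. The control cells came from the same lung, per the labels.

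Collagen is modified while its chains are still in the endoplasmic reticulum and crosslinked after secretion. Prolyl 4-hydroxylases hydroxylate proline residues, which stabilises the triple helix, and lysyl hydroxylases hydroxylate lysine residues. Lysyl oxidases are copper-dependent enzymes that turn lysine and hydroxylysine side chains outside the cell into aldehydes, which then form the covalent bonds between collagen or elastin molecules. Both hydroxylase families need iron, oxygen, 2-oxoglutarate and ascorbate. In the lung these bonds set the stiffness and recoil of the tissue, and raised crosslinking is a known feature of lung fibrosis.

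Promoters of 5 of the 10 genes had an entry in the RefSeq promoter table, Plod1, Plod3, P4ha2, P4ha3 and Loxl4. Of these, 3 are shown because 2 of them hold the same number of short hypoxia-factor letters while their genes differed in level change, and the third holds none. Each runs from 250 bases before to 50 bases after the start of the gene, read on the gene's strand from the assembly GRCm38.p6. The capitals mark the core letters bound by hypoxia-inducible factors, ACGTG or GCGTG, searched on both strands. P4ha2 lies at chr11:54100674-54100973 on the plus strand, Plod3 at chr5:136986769-136987068 on the plus strand, and P4ha3 at chr7:100285270-100285569 on the plus strand.
P4ha2: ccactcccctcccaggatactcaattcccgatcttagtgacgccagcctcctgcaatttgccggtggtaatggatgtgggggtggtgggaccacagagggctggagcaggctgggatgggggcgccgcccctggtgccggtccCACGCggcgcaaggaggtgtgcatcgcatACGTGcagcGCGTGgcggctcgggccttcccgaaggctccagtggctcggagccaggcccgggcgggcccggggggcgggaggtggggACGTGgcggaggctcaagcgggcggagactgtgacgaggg
Plod3: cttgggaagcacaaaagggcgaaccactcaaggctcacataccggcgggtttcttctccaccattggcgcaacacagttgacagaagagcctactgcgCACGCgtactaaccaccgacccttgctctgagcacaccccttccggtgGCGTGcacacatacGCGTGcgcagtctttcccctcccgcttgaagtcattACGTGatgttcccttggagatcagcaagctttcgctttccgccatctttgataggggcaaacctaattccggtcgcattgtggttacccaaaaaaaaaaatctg
P4ha3: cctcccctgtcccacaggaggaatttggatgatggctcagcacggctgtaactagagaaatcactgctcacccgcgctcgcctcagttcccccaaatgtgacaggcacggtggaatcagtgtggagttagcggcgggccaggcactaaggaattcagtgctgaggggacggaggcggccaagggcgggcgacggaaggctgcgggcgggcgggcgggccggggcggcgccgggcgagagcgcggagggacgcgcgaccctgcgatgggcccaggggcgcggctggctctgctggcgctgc

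The P4ha2 promoter held 4 hypoxia-factor cores, at positions -107, -78, -69 and 11 from the start of the gene, counted with the start as 1 and the base before it as -1. Plod3 also held 4, at -152, -104, -90 and -54. Plod1 held 2, Loxl4 held 1 and P4ha3 held 0. Of 32851 promoters of this length, 43.8% held at least 1 such core. The letters CAGAC, part of the element bound by SMAD proteins downstream of TGF-beta and BMP receptors, occurred once each in Plod1 and Loxl4 and in 49.6% of all promoters. The DR1 direct repeat bound by PPAR factors, in its consensus form, was in none of the 5 and in 0.0396% of all promoters. The letters GGGCGG, a GC box, occurred 5 times in P4ha3, 4 times in P4ha2, 3 times each in Plod1 and Loxl4 and not in Plod3, against 35.7% of all promoters with at least 1. The letters TATAAA were found once, in Plod1, and in 13.6% of all promoters. Matches of different motifs did not overlap in these 5 promoters. A match describes the letters and is not a measured binding site.

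The filters left 4703 control cells and 7468 stimulated ones, holding 88573140 and 117193148 unique molecular identifiers (UMIs), the tags that count single RNA molecules. The median cell held 19634 UMIs in control cells and 15380 in stimulated cells. Of the kept cells, 79.0% and 82.1% were in fibroblast-like clusters, 3.17% and 0.0134% in a macrophage-like cluster and 1.21% and 0.308% in a mesothelial-like cluster. Levels are given as UMIs of a gene per 1000000 UMIs of the library (CPM), over all kept cells unless a cluster is named. The 12 macrophage markers summed to 746 CPM in control cells and 14.2 CPM in stimulated cells, where 1 of them, Adgre1, was at 0. Most of the stimulated sum, 11.65 CPM, was Csf1r, which was at 23.3 CPM in control cells. In a finer clustering Csf1r was among the leading genes of a fibroblast-like cluster of 915 stimulated cells. The 10 mesothelial markers summed to 39.8 and 36.3, and 10 smooth muscle markers to 7014 and 2282. The near-equal mesothelial sums hold opposite moves. Msln went from 1.35 CPM in control cells to 13.1 CPM in stimulated cells, while Upk3b went from 4.02 to 0.469 CPM and Lrrn4 from 1.86 to 0.188 CPM. Of the 4077 control and 6708 stimulated cells with at least 5000 UMIs, 15.8% and 25.9% were in cycle, that is, held at least 5 UMIs of 12 cycling genes after thinning to 5000 UMIs. A total of 53 barcodes occurred in both libraries, 46 of them among the kept cells. Without the macrophage-like and mesothelial-like clusters, among cells not in cycle, and without the shared barcodes, Lox, Loxl2, Plod2 and P4ha2 were again at least 1.5-fold lower in stimulated cells. The part of the difference in smooth muscle markers was not tested.

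The method counts 1 tag near the 3′ end of each molecule, so levels were not divided by gene length. A fold is stimulated over control or the reverse, with an exact 95% conditional-Poisson interval that covers counting error only. With 1 library per group no test across samples was possible and no p-value is given. A gene is called higher or lower at a fold of at least 1.5.

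Of the 10 enzymes, 4 were lower in the stimulated library (Lox, Loxl2, Plod2 and P4ha2), 2 were higher (Loxl1 and Loxl3) and 4 lay between (Loxl4, Plod1, Plod3 and P4ha3). Of the 8787 genes that averaged at least 5 CPM, 12% were lower and 7.75% higher. All 10 passed this limit, Loxl4 nearest to it at 5.78 CPM. The median log2 fold of the 10 was -0.32, against -0.06 over all these genes. With TMM scaling, which assumes that most genes do not differ, the shares over all genes were 9.41% lower and 10.2% higher, and the counts of enzymes stayed at 4 and 2. The 10 genes together had 1526 CPM in control cells and 993 CPM in stimulated cells, a 1.54-fold lower level.

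**Figure D1:**
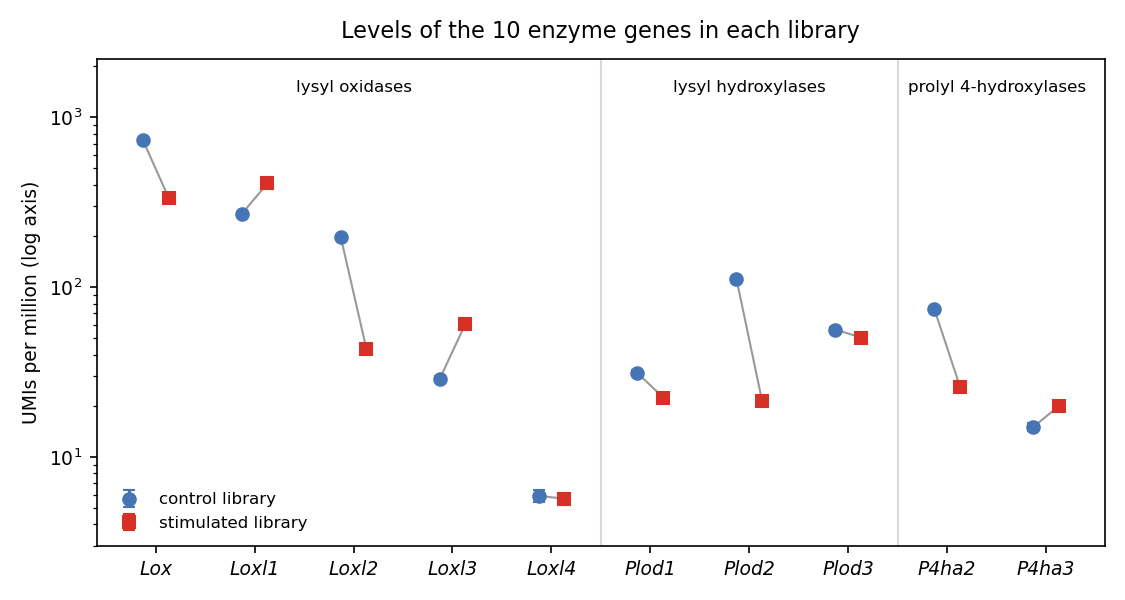
Level of each of the 10 enzyme genes in the control (blue circles) and stimulated (red squares) library, in CPM on a log axis, with exact Poisson 95% intervals that are mostly smaller than the symbols. Lox, Loxl2, Plod2 and P4ha2 are lower in the stimulated library, Loxl1 and Loxl3 are higher, and Loxl4 and Plod3 differ little.

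The lysyl oxidases were the most abundant family, with 1237 CPM in control cells and 853.5 CPM in stimulated cells, 1.45-fold lower (1.44 to 1.46). Lox (ENSMUSG00000024529), the founding member that oxidises fibrillar collagen and elastin, had 65132 UMIs or 735 CPM in control cells and 39434 UMIs or 336.5 CPM in stimulated cells. That was 2.19-fold lower (2.16 to 2.21), and its rank among all genes moved from 187 to 345. Loxl2 (ENSMUSG00000034205), a member with scavenger receptor domains that also crosslinks basement membrane collagen, went from 197 CPM to 43.3 CPM, 4.56-fold lower (4.42 to 4.70). Its rank moved from 638 to 2518. In the annotation used here 4 of 22 windows (18.2%) at the 3′ ends of Loxl2 transcripts also matched other listed genes, so a part of its reads could be counted elsewhere. Loxl2 also shares 301 exon bases on the opposite strand with Gm27177, which had 0 and 1 UMIs. Lox shares 30 exon bases with AC161119.1 on the opposite strand, likewise not analysed here.

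Loxl1 (ENSMUSG00000032334), which is known for its role in elastic fibre formation, went the other way, from 269.9 CPM to 407.5 CPM. The fold was 1.51 (1.49 to 1.53), so its interval spans the 1.5-fold limit. Without the macrophage-like and mesothelial-like clusters the fold was 1.49, which leaves 1 gene called higher instead of 2, where 7.92% of all genes were higher. Loxl3 (ENSMUSG00000000693), a scavenger-receptor member that is needed for palate and cartilage development, had 28.7 CPM in control cells and 60.5 CPM in stimulated cells, 2.11-fold higher (2.01 to 2.21). Loxl3 shares 1885 exon bases with Htra2 on the opposite strand. The strand setting of the counting is not given in the sources used here, so whether reads of both genes were told apart in that stretch is not known. Htra2 itself had 62.8 and 70.7 CPM, 1.13-fold higher. Loxl4 (ENSMUSG00000025185), the least abundant member, had 5.89 and 5.67 CPM, and the interval of its fold, 0.857 to 1.08, includes 1.

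The make-up of the family differed between the libraries. Lox gave 59.4% of the family's UMIs in control cells (exact binomial 95% interval 59.1 to 59.7) and 39.4% in stimulated cells (39.1 to 39.7). Loxl1 gave 21.8% (21.6 to 22.1) and 47.7% (47.4 to 48.1), so Loxl1 and not Lox was the most abundant lysyl oxidase RNA in the stimulated library. Loxl2 went from 15.9% (15.7 to 16.2) to 5.07% (4.94 to 5.21), and Loxl3 from 2.32% (2.23 to 2.41) to 7.09% (6.94 to 7.25). By level, Loxl2 was number 3 of the family's 5 genes in the control library and number 4 in the stimulated one, below Loxl3. Loxl4 gave 0.476% and 0.665%.

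The lysyl hydroxylases together had 199 CPM in control cells and 94.0 CPM in stimulated cells, 2.12-fold lower (2.07 to 2.17). Most of that difference came from 1 gene. Plod2 (ENSMUSG00000032374), the enzyme that hydroxylates lysines in the collagen telopeptides and so favours hydroxylysine-derived crosslinks, had 112 CPM and 21.3 CPM. It was 5.26-fold lower (5.04 to 5.50), the largest fold among the 10 genes, and its rank moved from 1115 to 4312. Plod2 shares 346 exon bases with Gm38391 on the opposite strand, a gene model not analysed here. Plod1 (ENSMUSG00000019055), which acts mainly on lysines of the helix, had 31.2 and 22.3 CPM, 1.39-fold lower (1.32 to 1.47) and so under the limit. Plod3 (ENSMUSG00000004846), which also carries the activity that adds sugars to hydroxylysine, had 56.2 and 50.4 CPM, 1.12-fold lower (1.07 to 1.16). Plod3 shares 604 exon bases with Znhit1 on the opposite strand, with the same limit as for Loxl3. Znhit1 had 118 and 94.0 CPM.

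Plod2 made up 56.2% of lysyl hydroxylase UMIs in control cells (55.5 to 56.9) and 22.6% in stimulated cells (21.9 to 23.4). Plod3 made up 28.2% (27.5 to 28.9) and 53.6% (52.7 to 54.5), and Plod1 15.6% (15.1 to 16.2) and 23.8% (23.0 to 24.6). The order of the 3 was thus Plod2, Plod3, Plod1 in the control and Plod3, Plod1, Plod2 in the stimulated library.

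The prolyl 4-hydroxylase subunits P4ha2 and P4ha3 together had 89.4 and 45.8 CPM, 1.95-fold lower (1.89 to 2.02). These alpha subunits hold the active site and pair with the beta subunit P4hb. P4ha2 (ENSMUSG00000018906) had 74.4 CPM in control cells and 25.9 CPM in stimulated cells, 2.88-fold lower (2.75 to 3.00). P4ha3 (ENSMUSG00000051048) had 14.99 and 19.9 CPM, 1.33-fold higher (1.24 to 1.42). Of the UMIs of both genes, P4ha3 gave 16.8% in control cells (16.0 to 17.6) and 43.5% in stimulated cells (42.2 to 44.8). P4ha2 was the more abundant of both in each library.

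**Figure D2:**
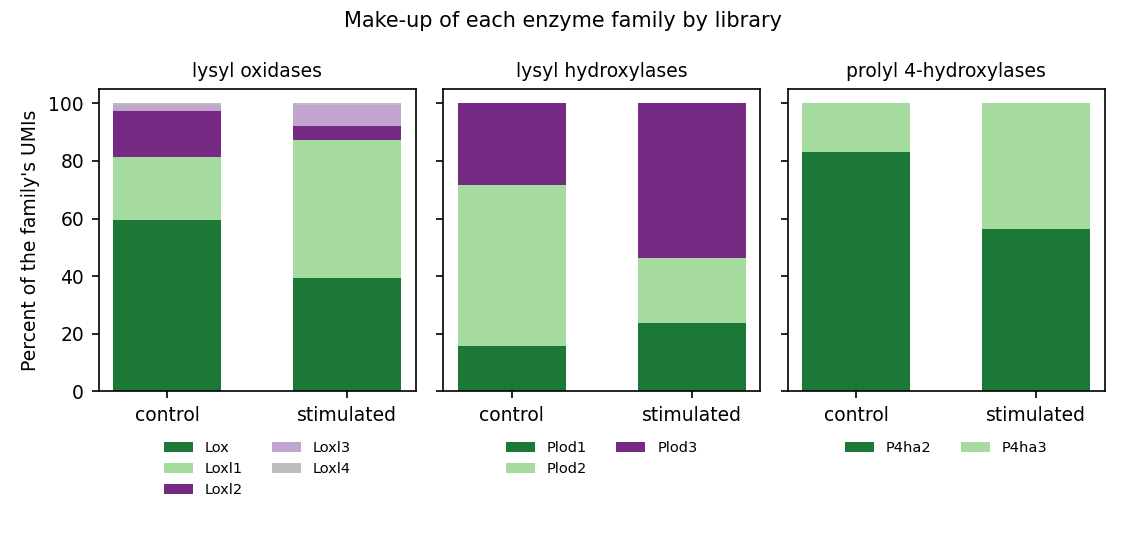
Share of each family's UMIs that each gene gave, in percent, with 1 stacked bar for each library. Lox is 59.4% of the lysyl oxidases in control cells and 39.4% in stimulated cells, Plod2 is 56.2% and 22.6% of the lysyl hydroxylases, and P4ha2 is 83.2% and 56.5% of both prolyl 4-hydroxylase subunits.

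Cells of both libraries were clustered together with the 10 genes left out of the clustering, so the levels by cluster were not used to make the clusters. Each fibroblast-like cluster was almost wholly from 1 library, and clusters are called by number. Lox ranged from 409.5 CPM in control cluster 1 (430 cells, led by Gzmd, Hsd3b6 and Gzme) to 870 CPM in control cluster 2 (424 cells, led by Lum and Rab3b). The control clusters 0 and 4 lay between, at 781 and 778 CPM, a pair whose intervals overlap. Among stimulated fibroblast-like clusters Lox ranged from 164 CPM in cluster 8 (214 cells, with Trib3 and Ddit3 among its leading genes) to 404 CPM in cluster 14 (3074 cells). The stimulated clusters 12 and 13 had 311.5 and 314 CPM, also with overlapping intervals. The highest stimulated level, 404 CPM (398 to 410), and the lowest control level, 409.5 CPM (396 to 423), did not differ beyond counting error.

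The ranges of Loxl2, Plod2 and P4ha2 over fibroblast-like clusters did not overlap between the libraries. Those of Lox did not overlap by point value either, but its nearest levels did not differ beyond counting error. The clusters themselves divide almost wholly by library, so a gene that differs between the libraries can separate in this way. The share of all genes whose ranges do not overlap was not tested. Loxl2 had 184 to 271 CPM in the control fibroblast-like clusters and 14.7 to 48.7 CPM in the stimulated ones. Plod2 had 91.1 to 203 CPM and 19.4 to 21.8 CPM. Across the 4 stimulated fibroblast-like clusters Plod2 was nearly flat, while across the control clusters it was highest in cluster 2, which was led by the small proteoglycan genes Lum and Dcn among others. P4ha2 had 61.7 to 151 CPM in the control and 22.7 to 47.1 CPM in the stimulated clusters. Its highest levels were in control cluster 4 (315 cells, with Mmp3 and the chaperone gene Hspa5 among its leading genes) and stimulated cluster 13 (324 cells). Cluster 13 was led by the interferon-induced genes Ifit3, Ifit1 and Isg15, then by Clu, Renbp, Apoe and Ctsl. Renbp and Ctsl were also among the leading genes of control cluster 4. In a finer clustering (Leiden resolution 1.0) Ifit3, Ifit1 and Isg15 were among the leading genes of a separate cluster of 47 stimulated cells.

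Loxl1 had 240 to 331 CPM in the control fibroblast-like clusters and 252 to 442 CPM in the stimulated ones, so the ranges overlapped. Stimulated cluster 8, at 252 CPM (235.5 lower bound), lay inside the control range. Loxl3 had 16.1 to 36.7 CPM in the control and 32.4 to 77.3 CPM in the stimulated clusters, which overlap through cluster 8 as well. Cluster 2, where Lox, Loxl1, Loxl2, Plod2 and P4ha3 were at their highest among the control fibroblast-like clusters, had the lowest Loxl3. P4ha3 had 13.5 to 20.4 CPM in the control and 9.96 to 22.0 CPM in the stimulated clusters, with overlap. Plod3 varied least, from 48.7 to 68.9 CPM over all 8 fibroblast-like clusters. Plod1 had 29.7 to 38.2 CPM in the control and 17.2 to 24.0 CPM in the stimulated ones, with no overlap, again without a share for all genes. Loxl4 was at its highest in control cluster 2, at 11.3 CPM, and at 3.74 to 6.69 CPM in the other 7.

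**Figure D3:**
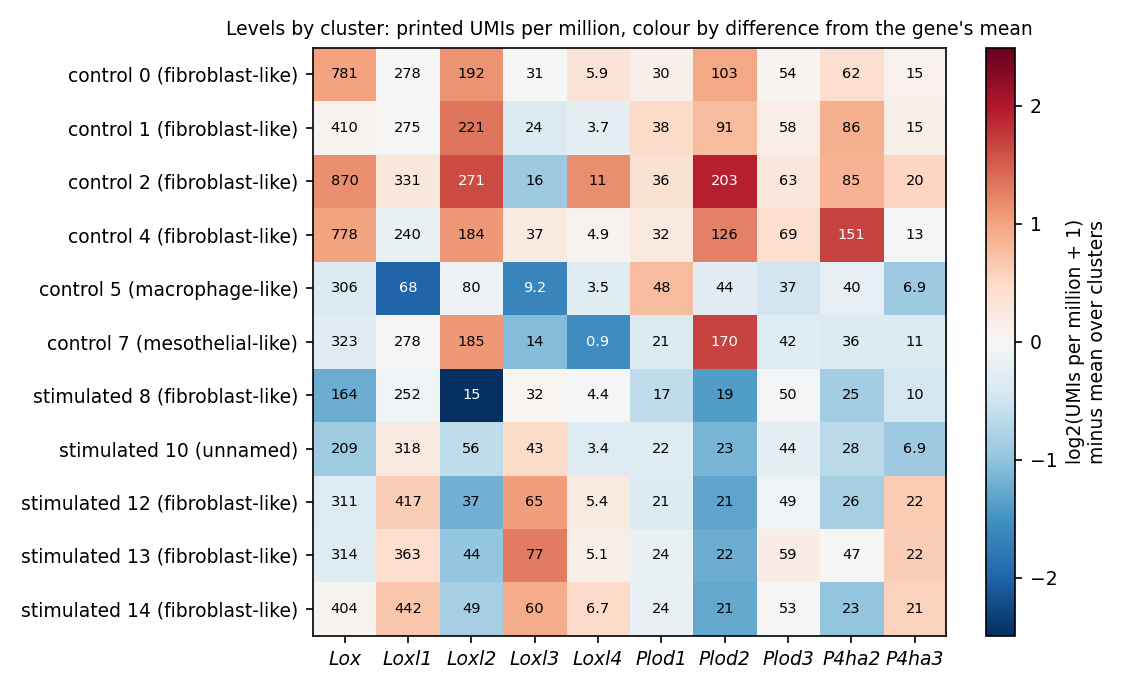
Level of each gene in each cluster of adequate depth, printed in CPM. Colour gives log2(CPM + 1) minus the gene's mean over the 11 clusters shown, red above and blue below. The Loxl2 and Plod2 columns are blue in the 5 stimulated clusters, and P4ha2 is reddest in control cluster 4.

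Outside the fibroblast-like clusters, the 149 macrophage-like control cells had 306 CPM of Lox, 68.0 CPM of Loxl1 and 43.8 CPM of Plod2, below every control fibroblast-like cluster. Plod1 was the exception, with 47.8 CPM (38.1 to 59.3) in macrophage-like cells against 31.5 CPM (30.3 to 32.7) in control fibroblast-like cells. The 57 mesothelial-like control cells had 170 CPM of Plod2 (146 to 195) and 185 CPM of Loxl2, inside the range of the control fibroblast-like clusters, and 323 CPM of Lox, below it. A small cluster of shallow control cells (58 cells, median 2898 UMIs, unnamed) had the highest level of 9 of the 10 genes, with 1720 CPM of Lox and 597 CPM of Loxl2, from 357 and 124 UMIs, and Loxl4 among the 9 from 3 UMIs. Another unnamed shallow control cluster (277 cells, median 5195 UMIs) was low instead, with 25.7 CPM of Plod2, 26.3 CPM of P4ha2, 71.3 CPM of Loxl2 and 70.7 CPM of Loxl1, so its Plod2 and P4ha2 were near their levels in stimulated fibroblast-like clusters.

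Clusters of similar expression were then set beside each other. Each control fibroblast-like cluster was paired with the stimulated one when each was the other's best correlate over 2000 variable genes. Clusters 0 and 14 formed a pair (Pearson r across genes 0.916) and so did clusters 4 and 13 (0.916). Between clusters 0 and 14, 4 of 10 enzymes were lower and 2 higher, where 14.4% of 8618 genes were lower and 7.60% higher. Between clusters 4 and 13, 4 of 9 measured enzymes were lower and 3 higher, where 14.8% of 8527 genes were lower and 8.98% higher. The additional gene here was P4ha3, 1.61-fold higher (1.25 to 2.06), and Loxl4 was under the limit of 5 CPM. The 4 lower genes were in both pairs Lox, Loxl2, Plod2 and P4ha2. Plod2 was 4.88-fold lower (4.57 to 5.23) between clusters 0 and 14 and 5.77-fold lower (4.86 to 6.90) between clusters 4 and 13. Lox was 1.93-fold (1.90 to 1.97) and 2.48-fold lower (2.36 to 2.60). The pairs were not matched for cell cycle. Stimulated cluster 12, led by cycling genes such as Nusap1 and Ccna2, was not in a pair. In control cluster 0 Lox was at 931 CPM in cells lowest and 617 CPM in cells highest for cycling genes (ranking described below). In stimulated cluster 14 Lox was at 398 and 378 CPM. The part of cycling in the Lox fold between clusters 0 and 14 was not tested.

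A further pair, chosen after the first clustering, set control cluster 1 beside stimulated cluster 10 (551 cells, unnamed, sharing the leading genes Hsd3b6, Limch1 and Gzme), with r of 0.925. Cluster 1 was taken as the control fibroblast-like cluster closest to cluster 10, and a mutual best match was not required. Cluster 1 is part of the control fibroblast-like levels, ranges and shares, while cluster 10, being unnamed, is not part of the stimulated ones. Here 6 of 9 measured enzymes were lower and 1 was higher, where 17.0% of 8932 genes were lower and 5.68% higher. Lox, Loxl2, Plod2 and P4ha2 were again among the lower ones, at 1.96-fold, 3.96-fold, 4.00-fold and 3.04-fold. Plod1 was 1.75-fold lower (1.47 to 2.09). P4ha3 was 2.21-fold lower (1.63 to 3.02), from 15.3 to 6.92 CPM, the opposite direction to the other pairs. Loxl1 was 1.15-fold higher (1.09 to 1.22) and Loxl3 1.77-fold higher (1.499 to 2.10). Over all fibroblast-like clusters together, 4 enzymes were lower and 2 higher, against 12.6% and 8.01% of 8755 genes, with Plod2 5.46-fold lower and Loxl1 at 1.51-fold higher.

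**Figure D4:**
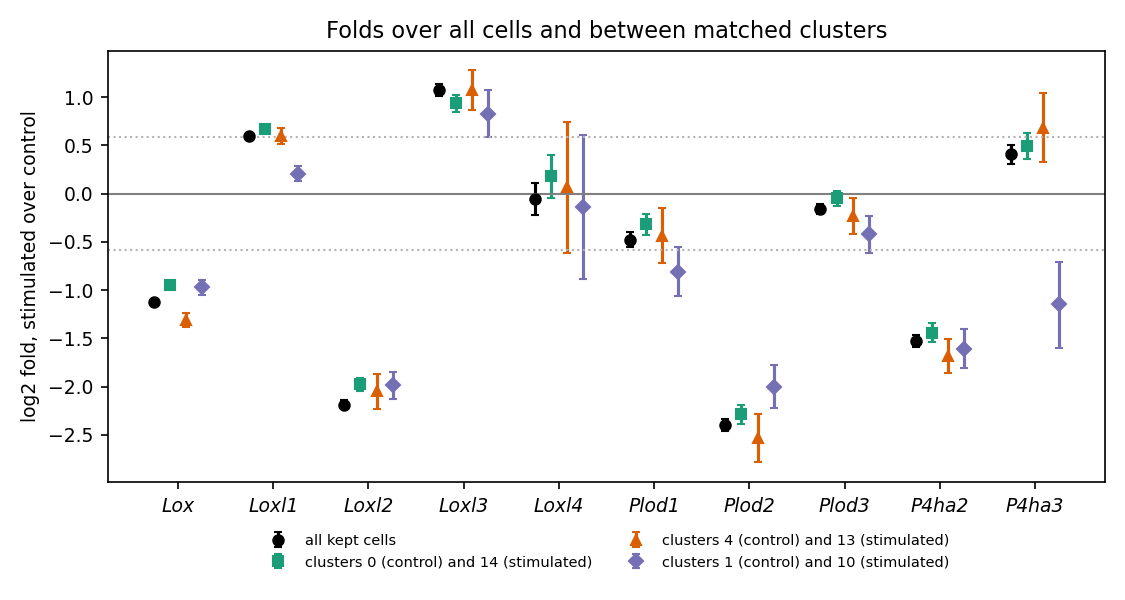
Log2 fold, stimulated over control, of each gene over all kept cells (black) and between 3 pairs of clusters, with exact conditional-Poisson 95% intervals. Clusters 1 and 10 were paired without requiring a mutual best match. Dotted lines mark 1.5-fold either way. Lox, Loxl2, Plod2 and P4ha2 lie below the lower line in all 4 comparisons, and P4ha3 is above 0 in 3 of them and below 0 between clusters 1 and 10.

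Shares of cells with a UMI were taken after each cell was thinned to 5000 UMIs, with shallower cells left out, which kept 3679 control and 6079 stimulated fibroblast-like cells. Their median depths before thinning were 21528 and 16161 UMIs. Lox was seen in 89.9% of control (88.9 to 90.9, exact binomial 95% interval) and 66.3% of stimulated fibroblast-like cells (65.1 to 67.4). Loxl1 was seen in 73.7% and 85.1%, Loxl2 in 59.1% and 18.2%, and Loxl3 in 13.3% and 24.7%. Plod2 was seen in 40.3% and 9.87%, and P4ha2 in 29.3% and 11.4%. As a level that free RNA could give, the 131 control macrophage-like cells of this depth (median 11405 UMIs) showed Lox in 38.9%, Loxl1 in 21.4%, Loxl2 in 16.8% (10.8 to 24.3), Plod2 in 10.7% (5.97 to 17.3), P4ha2 in 11.5% (6.55 to 18.2) and Loxl3 in 1.53%. The stimulated library held 1 macrophage-like cell and so gave no such level of its own. Its shares for Plod2 and P4ha2 were no higher than the control macrophage-like shares, and its share for Loxl2 lay inside the macrophage-like interval. None of these 3 shares is therefore read as cells that express the gene. The macrophage-like level is that of the control library, where these 3 genes were higher, and free RNA of the stimulated library was not measured. By summed counts, the stimulated fibroblast-like clusters had 14.7 to 48.7 CPM of Loxl2, 22.7 to 47.1 of P4ha2 and 19.4 to 21.8 of Plod2.

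Of the less abundant enzymes, Plod1 was seen in 15.1% of control and 10.7% of stimulated fibroblast-like cells, under its 24.4% in macrophage-like cells, which therefore give no background for this gene. Plod3 was seen in 24.4% and 21.6%, against 11.5% in macrophage-like cells. P4ha3 was seen in 7.18% and 9.94%, against 1.53%. Loxl4 was seen in 2.80% and 2.90%, against 0 of 131 macrophage-like cells, a count that allows a share of up to 2.29% at 3 counts, or 2.78% by the exact 95% interval, which is close to the fibroblast-like shares. The number of these enzymes seen in 1 cell also differed. At this depth 79.5% of control fibroblast-like cells (78.1 to 80.8) and 50.6% of stimulated ones (49.3 to 51.9) had a UMI of 3 or more of the 10 genes, against 19.1% of macrophage-like cells (12.7 to 26.9).

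Within each library, cells of at least 5000 UMIs were ranked by their thinned UMIs of a gene list, and the highest 25% were compared with the lowest 25%, 1019 control or 1677 stimulated cells each. These are ranges of a score and not cell types. By the hypoxia-inducible genes, P4ha2 went from 43.6 to 121 CPM in the control library, 2.78-fold higher at the top (2.58 to 3.00). In the stimulated library it went from 20.1 to 36.3 CPM, 1.81-fold (1.63 to 2.002). Plod1 was 1.28-fold (1.15 to 1.43) and 1.16-fold higher (1.04 to 1.29), and Plod2 1.12-fold and 1.15-fold. Plod3, whose promoter held as many hypoxia-factor cores as that of P4ha2, was at 1.12-fold (1.03 to 1.21) in the control and 0.937-fold (0.872 to 1.01) in the stimulated library. P4ha3, with none, was at 1.05-fold (0.903 to 1.23) and 1.13-fold (1.01 to 1.27). The part of the promoter letters in these folds was not tested. Lox was lower in cells high for these genes, at 0.815-fold and 0.803-fold. Within single clusters of at least 1000 cells the P4ha2 folds were 2.04 in control cluster 0, 1.75 in stimulated cluster 12 and 1.46 in stimulated cluster 14.

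By contractile genes, such as the smooth muscle actin gene Acta2, Lox ran in opposite directions in the 2 libraries. In the control library Lox was at 756 CPM in the lowest and 662 CPM in the highest 25%, a fold of 0.875 (0.856 to 0.895). In the stimulated library it was at 229 and 435 CPM, a fold of 1.90 (1.85 to 1.96). The same directions were seen within clusters, with folds of 0.907 in control cluster 0, 1.98 in stimulated cluster 12 and 2.10 in stimulated cluster 14. P4ha2 was higher in contractile-high cells of both libraries, at 2.15-fold and 1.49-fold, as was Loxl2 at 1.40-fold and 1.34-fold. Loxl1 was at 0.935-fold and 0.943-fold. By 12 cycling genes, Lox was at 0.650-fold in the control and 0.857-fold in the stimulated library, and Loxl3 at 1.39-fold and 1.20-fold. The stimulated folds were not the same within clusters. Lox was at 0.663-fold in control cluster 0, 1.06-fold (1.01 to 1.11) in stimulated cluster 12 and 0.9505-fold (0.912 to 0.991) in stimulated cluster 14. Loxl3 was at 1.42-fold, 1.125-fold and 0.935-fold (0.842 to 1.04) in these clusters. Plod2 was at 0.683-fold in the control (0.645 to 0.723) and 1.01-fold in the stimulated library (0.899 to 1.13).

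**Figure D5:**
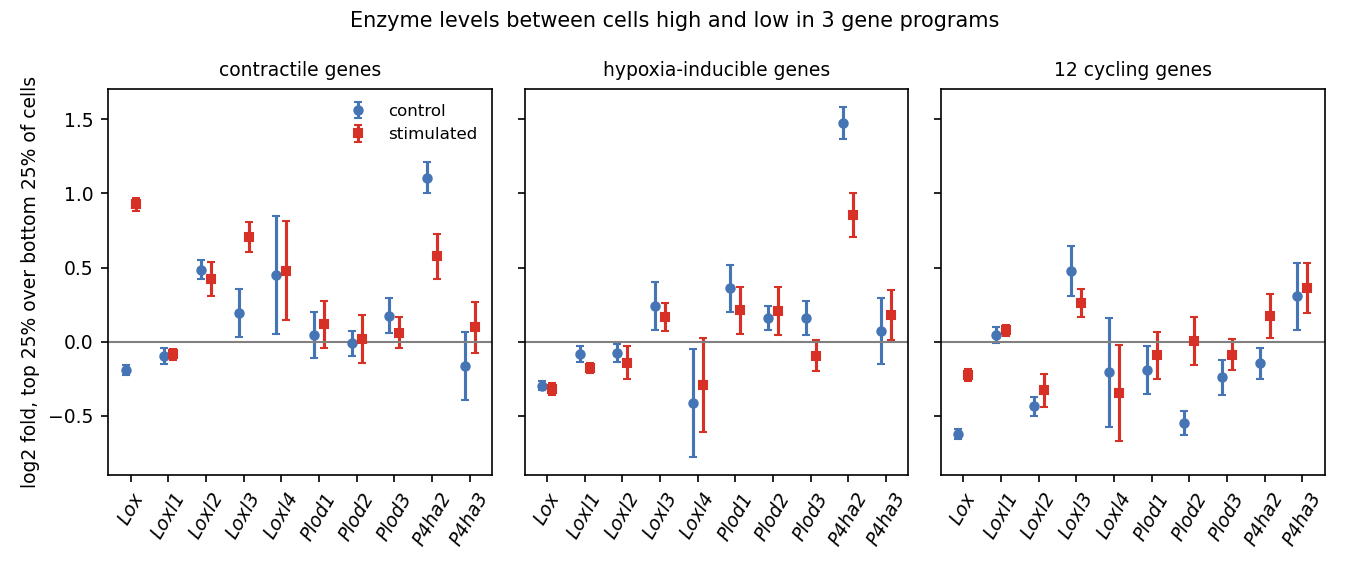
Log2 fold of each gene between the highest and lowest 25% of cells by contractile, hypoxia-inducible and 12 cycling genes, in the control (blue) and stimulated (red) library, with exact conditional-Poisson 95% intervals. P4ha2 is the highest point in the hypoxia panel in both libraries, and Lox lies below 0 in the control and above 0 in the stimulated library in the contractile panel.

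Over the 15 sums of a cluster within a library that held at least 50 cells, the enzymes fell into different patterns. Correlations here are of log2(CPM + 1), and the sums share libraries and differ in depth. Loxl2 and Plod2 went together most closely, with r of 0.94, and Loxl2 with Lox at 0.83. Loxl1 went with P4ha3 at 0.71 and with Loxl3 at 0.70, while Lox and Loxl1 had r of 0.07. Over all genes of at least 5 CPM, the 3 most like Lox were Postn (0.938), Heg1 (0.913) and Itga11 (0.904). The 3 most like Plod2 were P4ha1 (0.966), the remaining prolyl 4-hydroxylase alpha subunit, Col5a2 (0.960), a fibrillar collagen chain, and Fndc1 (0.956). The 3 most like P4ha2 were Hspa1a (0.970), C1galt1c1 (0.931) and Fam20a (0.926). The sums include the shallow control cluster of 58 cells, with 284 CPM of P4ha2, where 3 UMIs equal 14.45 CPM. Hspa1a had 7.06 and 3.27 CPM in the control and stimulated libraries. How far these correlations rest on that cluster was not tested.

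The substrates of these enzymes were lower in the stimulated library in most cases. Of 9 measured fibrillar and network collagen and elastin genes, 7 were lower and 0 higher, with a median log2 fold of -1.46. Col1a1, a chain of type I collagen, went from 2399 to 471 CPM, 5.10-fold lower, and Col1a2 from 1917 to 690 CPM, 2.78-fold lower. Col5a2 went from 480 to 80.7 CPM, 5.95-fold lower, next to the 5.26-fold of Plod2. Col4a1, a basement membrane collagen, was at 537 and 607 CPM, 1.13-fold higher. Of 15 measured genes for procollagen processing and fibril assembly, 8 were lower and 1 higher (median log2 fold -0.79). Sparc, a collagen-binding matrix protein, went from 3825 to 1661 CPM and Fn1, fibronectin, from 1195 to 584 CPM. Lum, a small proteoglycan, went from 19.5 to 0.162 CPM, and Bgn, a related one, from 1762 to 1698 CPM. Aebp1, a collagen-binding secreted protein, was the 1 higher gene, from 282 to 510 CPM, 1.81-fold.

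The partners that fold and modify procollagen in the endoplasmic reticulum differed less. Of 19 measured, 5 were lower and 1 higher (median log2 fold -0.31), next to -0.32 for the 10 enzymes. P4ha1 went from 105 to 43.1 CPM, 2.43-fold lower, while P4hb, the beta subunit it shares with P4ha2 and P4ha3, was at 612 and 536.5 CPM. Serpinh1, the collagen chaperone HSP47, was 1.63-fold lower, from 883 to 542 CPM. Ppib, a prolyl isomerase, was at 354 and 390 CPM, and Tmem38b, an ion channel of the endoplasmic reticulum, was 1.57-fold higher, from 30.04 to 47.1 CPM. Of 15 measured genes for the supply of copper, iron, ascorbate and 2-oxoglutarate, 1 was lower and 4 higher (median log2 fold 0.08). The copper chaperone gene Atox1 was at 832 and 698 CPM, the iron-binding Pcbp1 at 179 and 199 CPM, and Glud1, a glutamate dehydrogenase that makes 2-oxoglutarate, at 79.4 and 78.4 CPM. Tfrc, the transferrin receptor, was 1.94-fold lower, and Slc39a14, a zinc and iron importer, was 2.63-fold higher. Of 11 measured enzymes of the same chemistry with other substrates, 3 were lower and 0 higher (median log2 fold -0.22). Among them Egln2 had 69.3 and 79.7 CPM, Jmjd6 45.1 and 29.1 CPM, Alkbh5 56.5 and 38.0 CPM, and Asph 25.2 and 30.3 CPM, while Egln3, an oxygen-sensing prolyl hydroxylase, was 3.17-fold lower.

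The gene lists used to rank cells also differed between the libraries. Of 25 measured hypoxia-inducible genes, 19 were lower and 2 higher in the stimulated library, with a median of -0.93. Aldoa, Ldha and Eno1, enzymes of glycolysis and lactate formation, were 1.74-fold, 1.61-fold and 1.71-fold lower. Vegfa, a growth factor for vessels, was 5.64-fold lower, and Pgk1, another glycolytic enzyme, was 2.95-fold higher. Of 19 measured TGF-beta response genes 17 were lower and 0 higher (median log2 fold -1.42), and of 19 contractile genes 16 and 0, with a median of -1.30. Both lists hold Acta2, which went from 3217 to 1097 CPM, and Tagln, which went from 2215 to 903 CPM. Thbs1, a matrix protein, went from 3791 to 1443 CPM, and Timp3, a protease inhibitor, from 792 to 62.4 CPM. Cdkn2b, a cell cycle inhibitor, was at 20.6 and 21.1 CPM. Of the contractile genes, Tpm1 went from 1493 to 580 CPM and Myh11 from 28.4 to 0.393 CPM, while Des was at 84.1 and 110.0 CPM. Other lists share genes too, so their counts are not independent. Col1a1 is among the substrates and Postn among the fibril assembly genes, and both are TGF-beta response genes. Egln3 is in the hypoxia-inducible list and in that of the same chemistry. None of the 10 enzymes was in a list used to rank cells.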

How the data were processed

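Single-cell RNA of cultured mouse lung fibroblasts was prepared with a droplet 3′ kit in 2 libraries, 1 control and 1 stimulated, grouped by their titles. The authors deposited UMI counts per gene and barcode, not normalized. Cell Ranger 1.3.1 and Seurat 3.0.0 are listed in the submitters' processing notes, and software version 3.0.2 per the file headers. Genome build, annotation and strand setting were not given in the sources used here. Barcodes with at least 500 genes and at most 20% mitochondrial UMIs were kept, which left out 313 and 230. Libraries held 88876791 and 117381412 UMIs in 5016 and 7698 barcodes. Scrublet marked 1 and 0 cells, under the 0.5% a working caller should mark, so doublets were kept.

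Counts were summed over cells and divided by the total to give CPM, with exact Poisson intervals. The fold statistics were checked on simulated data. Intervals and limits cover counting error only. A fold of 1.5 and a mean of at least 5 CPM were required for a call. Clusters were made with scanpy 1.11.5 (2000 variable genes without the 10 enzymes, 30 principal components, 15 neighbours, Leiden resolution 0.5, no integration). A cluster took another type's name if at least 3 of its markers were seen in at least 25% of cells and at least 70% of them were 4-fold over the rest of the library. Otherwise it was fibroblast-like, or unnamed where a smooth muscle marker led it or its median depth, times 3, was under that of its library. This naming rule was settled after a first clustering. Macrophage-like cells rested on 12 listed markers, of which 9 were measured and all 9 lower in the stimulated library (Lyz2 397 and 0.555 CPM, Tyrobp 67.5 and 0.0427, C1qb 72.0 and 0.137). Of 4 measured mesothelial markers 1 was lower and 1 higher (Msln 1.35 and 13.1 CPM, Upk1b 7.37 and 3.93, Slpi 9.42 and 6.98, Wt1 6.12 and 6.00), of 9 smooth muscle markers 7 were lower and 0 higher (Actg2 660 and 59.3 CPM), and of 12 cycling genes 0 were lower and 5 higher (Birc5 77.9 and 135 CPM, Ube2c 87.9 and 122, Top2a 43.0 and 68.3, Ccnb2 38.0 and 71.2).

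The 10 genes and all lists were chosen with earlier results of these data known. Besides the 10, the genes named are the 3 most abundant and the largest fold each way of each list, the 3 most correlated genes, leading genes of clusters, and genes that overlap an enzyme, which were named after their values were seen. The markers Csf1r, Upk3b and Lrrn4 were also named after their values were seen. Overlaps and shared 3′ windows (90 nt, minimap2 2.31) used GENCODE M21 and were checked for the 10 enzymes only. Alternatives changed the barcode filter, the scaling (TMM of edgeR 4.0.16), the cells, the fold, the level limit, the thinning and the resolution. Leaving out shared barcodes, the pair of clusters 1 and 10, and the rankings within clusters were added after seeing the data.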

Additional observations from a re-analysis of the deposited data

Results flagged for a closer look

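P4ha3 was 0.452-fold (0.331 to 0.612) between control cluster 1 and stimulated cluster 10 and 1.61-fold (1.25 to 2.06) between control cluster 4 and stimulated cluster 13, on opposite sides of 1. The value in stimulated cluster 10 rests on 65 UMIs. Lox was at 0.875-fold between control cells high and low in contractile genes and at 1.90-fold between stimulated cells ranked the same way. With 1 library per group, neither difference was tested across samples.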

How the results depend on the processing

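Over all alternatives 4 enzymes were lower. Those higher were 2, except 1 without the macrophage-like and mesothelial-like clusters (Loxl1 at 1.49-fold) and 1 at a fold of 2. The shares over all genes ranged from 5.05% lower and 3.30% higher at a fold of 2 to 25.1% and 16.8% with no limit on the level. The same counts of enzymes thus stand beside different shares. The median log2 fold of the enzymes ranged from -0.80 (at least 20 CPM, 8 genes) to -0.21 (TMM), and TMM moved the median over all genes by 0.10. Over 9 alternatives no called fold changed direction. Lox was 2.03 to 2.26-fold lower, Loxl2 4.24 to 4.80-fold, Plod2 4.90 to 5.51-fold and P4ha2 2.67 to 3.01-fold, and Loxl3 was 2.07 to 2.26-fold higher. Cells not in cycle gave 5.51-fold for Plod2 and 3.01-fold for P4ha2. Loxl4 was at 1.04-fold with TMM and below 1 otherwise. Shares of cells moved with the thinning (Lox in control fibroblast-like cells 74.7% at 2500 UMIs, 99.2% with no thinning), and the order of the libraries was the same at 3 depths for 9 of 10 genes, not for Loxl4. With 522 and 665 UMIs of Loxl4, depth limits its fold over all cells to 0.857 to 1.08. No paired analysis was possible because each group has 1 library.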
